A study of Mus musculus with 18 samples.

Results

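The genes examined here make, take up, store and move cholesterol. A set of 32 genes was followed, and a gene counted as measured where a transcript cluster of the array (its reporting unit, a group of probes that covers 1 transcript) named that gene and no other. By this rule 29 of the 32 were measured, among 22180 genes in all. Acat2 and Soat1 had no cluster that named them, and Idi1 shared its only cluster with a second gene, so these 3 were not analysed here. The 29 comprised 15 enzymes of the synthesis pathway, 1 lipoprotein receptor, 4 proteins that control synthesis, 3 transfer proteins, 4 proteins of the lysosome or of cholesterol esters, and 2 of efflux and lipoproteins.

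Cells obtain cholesterol by building it from acetyl-CoA and by taking it up from lipoproteins. The mevalonate enzymes make farnesyl diphosphate, a pair of these units is joined to squalene, squalene is closed to lanosterol, and a series of sterol enzymes turns lanosterol into cholesterol. When membranes of the endoplasmic reticulum are poor in sterol, SCAP carries the precursor of the transcription factor SREBP-2 to the Golgi for cleavage, and INSIG proteins hold it back when sterol is plentiful. Ovarian theca, granulosa and luteal cells turn cholesterol into steroid hormones, and in rodents much of it arrives as cholesteryl ester taken from high-density lipoprotein by the receptor SR-BI. The brain makes its own cholesterol behind the blood-brain barrier, and apolipoprotein E from astrocytes carries it between brain cells.

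Total RNA of 3 tissues, the hypothalamus, the pituitary and the ovary, was hybridised to 18 Mouse Gene 2.0 ST arrays of Affymetrix. Females of a strain labelled BABL/c, 10 littermate pairs aged 6 weeks, were split at random between a control and a transport-stress group, so that each pair gave a mouse to either group. The labels give the transport as 1000 km, about 10 h and an average of 50 km/h, values that cannot all hold, so its length is uncertain. Stressed mice were brought back to the laboratory that housed all mice, and every mouse of both groups was superovulated at 9 weeks. In each group the tissues of the mouse with the most oocytes (high), of the mouse with the fewest (low) and of the remaining 8 mice together (pool) were measured. All ovaries therefore came from superovulated animals, and no unstimulated ovary was among the groups. Each tissue had 3 control and 3 stress arrays, of which 2 per group were single mice and 1 was a pool, so p values measure the spread over these unlike samples. Values are log2 signals, on which a difference of 1 is a 2-fold difference in signal.

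Array medians ran from 4.75 to 5.03, and arrays of a tissue correlated at 0.928 to 0.988 against 0.866 to 0.955 between tissues. Marker genes placed the arrays in their labelled tissues: the mean of 11 markers of ovarian granulosa, theca and luteal cells was 9.58 to 9.99 in ovary. On 10 of the 12 other arrays that mean was 4.68 to 5.16, and the exceptions were both from the stressed pool. Its value was 7.39 in that pool's pituitary, where 10 of the 11 markers lay above all 4 single-mouse pituitaries. In that pool's hypothalamus the value was 6.55, with 7 of 11 above. The same pituitary array also had the highest mean of 7 astrocyte markers, 6.86 against 5.76 to 6.18 on the other pituitary arrays. On it 5 of the 7 lay above all 4 single-mouse pituitaries, and Aqp4 (5.92) and Agt (5.25) did not. The list is not specific to brain here. Gja1 and Aldh1l1 had higher means in ovary (10.70 and 7.70) than in hypothalamus (9.82 and 7.45). Both ovary pools carried pituitary hormone markers, with means over 8 genes of 6.64 (control) and 6.98 (stress) against 4.45 to 4.82 in single-mouse ovaries. Prl alone read 10.82 and 11.44 in these pools against 3.63 to 5.09. Among single-mouse hypothalami Prl also varied, with 9.26 (control low) and 8.68 (stressed high) against 5.53 (control high) and 6.55 (stressed low). Below, a tissue difference is also given without the stressed pool where its absence changed the call or moved the value by over 1.5 times in signal.

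The first comparison asked how the steroid-making ovary differs from hypothalamus and pituitary. Of the 29 genes, 24 were higher in ovary than in hypothalamus, 1 was lower and 4 did not pass the test (limma, Benjamini-Hochberg adjusted p under 0.05 over all 22180 genes). Against pituitary 26 were higher, 0 were lower and 3 did not pass. Over all genes tested, 25.7% were higher and 21.5% lower in ovary than in hypothalamus, and 21.8% were higher and 19.2% lower than in pituitary. With only the 13536 genes of a mean of at least 5 tested, which include all 29, 4976 were higher and 4115 lower than in hypothalamus. Against pituitary 4399 of these were higher and 3577 lower. The median ovary minus hypothalamus difference was 1.32 over the 29 genes and 0.03 over all genes, and the median ovary minus pituitary difference was 1.67 and -0.01. Higher by at least 2-fold were 20 of the 29 in each comparison, against 11.3% and 8.51% of all genes. The 2 comparisons share the ovary arrays and are given side by side, not as independent results. In whole tissue a greater number of expressing cells and more RNA per cell cannot be told apart.

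For 21 of the 29 genes every one of the 6 ovary arrays lay above all 12 arrays of the other tissues, and for 0 genes did every ovary array lie below them. Over all genes this held for 8.64% (above) and 6.65% (below). The 8 genes with overlap were Pmvk, Insig2, Srebf2, Stard3, Npc1, Npc2, Lipe and Apoe. The counts did not rest on the stressed pool: without its 3 arrays 24 and 26 genes were higher, and with single mice alone 24 and 27 were.

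**Figure D1:**
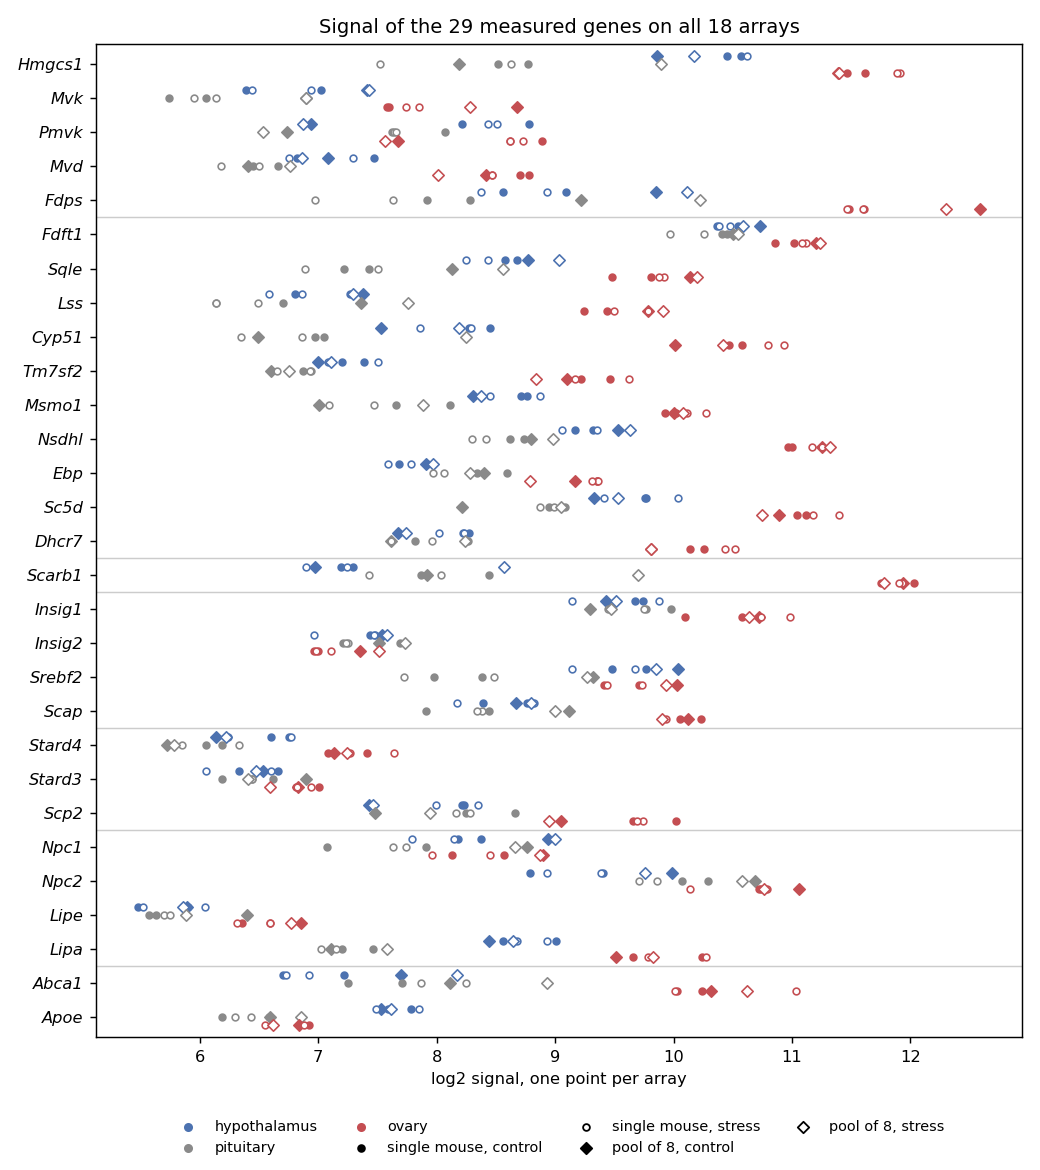
Log2 signal (horizontal axis) of the 29 measured genes, grouped by role from the mevalonate enzymes (top) to efflux and lipoprotein (bottom), 1 point per array. Colours mark tissues, circles single mice, diamonds pools, filled symbols control and open symbols stress. For 21 genes the 6 ovary points lie to the right of all 12 others. Positions of different genes on the axis are not comparable, since probes differ in brightness.

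All 15 synthesis enzymes were higher in ovary than in pituitary and 14 of them were higher than in hypothalamus, the exception being Pmvk. Their median difference was 1.43 against hypothalamus and 2.28 against pituitary. The mevalonate steps came first. Hmgcs1 encodes the cytosolic HMG-CoA synthase, which condenses acetyl-CoA with acetoacetyl-CoA, and its promoter is a textbook target of SREBP. It read 11.39, 11.54 and 11.91 (lowest, median and highest of 6) in ovary, 9.86, 10.31 and 10.62 in hypothalamus and 7.52, 8.57 and 9.89 in pituitary. No ovary array overlapped another tissue, and the difference was 1.30 ± 0.25 (standard error, n = 6 arrays per tissue) against hypothalamus and 3.02 ± 0.25 against pituitary (limma adjusted p = 0.000233 and 1.02e-08).

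Promoter sequences were looked up because SREBP acts through a short element, TCACCCCAC in its form searched here. RefSeq start sites of 23 of the 29 genes, all but Npc1, Sqle, Fdps, Scarb1, Stard4 and Fdft1, (32 windows of 300 bases on GRCm38.p6, from 250 bases before the start to 50 after it) were searched on both strands. The element was in 1 of the 32 windows (3.12%), that of Hmgcs1, against 0.55% of all 32851 windows of that length. The looser form TCACNCCAC, which includes the strict one, was in 2 windows (6.25%), those of Hmgcs1 and Stard3, against 1.24%. Both windows are shown with the match in capitals, since they are the members with a match to the element.

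Hmgcs1, chr13:119690101-119690400, plus strand: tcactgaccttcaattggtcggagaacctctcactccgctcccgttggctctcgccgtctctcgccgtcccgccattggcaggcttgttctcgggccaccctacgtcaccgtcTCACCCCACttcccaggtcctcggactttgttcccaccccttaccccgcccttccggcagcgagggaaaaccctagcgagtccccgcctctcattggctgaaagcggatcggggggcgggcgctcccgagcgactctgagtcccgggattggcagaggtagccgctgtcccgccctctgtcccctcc

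Stard3, chr11:98358118-98358417, plus strand: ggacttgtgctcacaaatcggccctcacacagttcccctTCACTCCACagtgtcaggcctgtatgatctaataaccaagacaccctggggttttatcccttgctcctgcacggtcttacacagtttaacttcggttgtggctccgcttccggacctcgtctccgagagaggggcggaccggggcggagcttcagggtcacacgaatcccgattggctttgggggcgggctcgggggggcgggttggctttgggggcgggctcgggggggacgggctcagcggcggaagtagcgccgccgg

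The Hmgcs1 match began 137 bases before the start site, and the Stard3 match, TCACTCCAC, began 211 bases before it. The GC box GGGCGG was in 75.0% of the members' windows against 35.66% of all windows, the CCAAT box CCAAT in 56.25% against 37.41%, and the E-box CACGTG in 21.88% against 7.15%. The motif AAGGTCA, which NR5A receptors bind, was in 6.25% (Dhcr7 and Hmgcs1) against 4.72%, and TGACGTCA, the cyclic AMP element, in 0 of 32 against 1.79%. These are matches of letters in a fixed window and not measured binding sites. Genes with several start sites have several windows, which are not independent.

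Mvk, mevalonate kinase, read 7.58, 7.80 and 8.68 (lowest, median, highest) in ovary, 6.39, 6.98 and 7.43 in hypothalamus and 5.74, 6.10 and 6.90 in pituitary. It was higher in ovary by 1.02 ± 0.20 and 1.67 ± 0.20, and again the ovary arrays lay apart. Pmvk, phosphomevalonate kinase, which acts on the product of Mvk, overlapped between tissues: 7.56, 8.62 and 8.89 in ovary, 6.87, 8.32 and 8.78 in hypothalamus and 6.53, 7.63 and 8.07 in pituitary. Its ovary minus hypothalamus difference of 0.39 did not pass the test (95% interval -0.16 to 0.95, limma adjusted p = 0.251), and that against pituitary, 0.97, did (adjusted p = 0.00573). With the animal as a fixed block the first passed as well (limma adjusted p = 0.0121). In each tissue the lowest Pmvk values were those of both pools. Mvd, the decarboxylase that yields isopentenyl diphosphate, read 8.01, 8.47 and 8.78 in ovary, 6.75, 6.97 and 7.47 in hypothalamus and 6.18, 6.48 and 6.76 in pituitary, differences of 1.43 ± 0.14 and 1.98 ± 0.14.

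Fdps makes farnesyl diphosphate, the last product shared by sterol and non-sterol branches. In the order high, low and pool, it read 11.48, 11.61 and 12.59 in control ovaries and 11.60, 11.46 and 12.30 in stressed ovaries. The hypothalamus gave 9.09, 8.56 and 9.85 in control and 8.93, 8.37 and 10.11 in stressed samples. The pituitary gave 8.28, 7.92 and 9.22 in control and 6.97, 7.63 and 10.22 in stressed samples. Ovary stood 2.69 ± 0.34 above hypothalamus and 3.47 ± 0.34 above pituitary (6.45-fold and 11.07-fold in signal, limma adjusted p = 1.84e-06 and 1.03e-07), and the pool was the highest array of its group in all 6 groups.

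From squalene onwards all 10 enzymes were higher in ovary in both comparisons. Fdft1, squalene synthase, showed the smallest differences of the 10, 0.57 ± 0.11 and 0.73 ± 0.11, with 10.86, 11.10 and 11.24 in ovary, 10.37, 10.51 and 10.73 in hypothalamus and 9.97, 10.43 and 10.54 in pituitary. Even so, its lowest ovary array was above the highest of the other tissues. Sqle, squalene epoxidase, read 9.48, 9.90 and 10.20 in ovary, 8.25, 8.63 and 9.03 in hypothalamus and 6.89, 7.46 and 8.56 in pituitary, differences of 1.28 ± 0.19 and 2.28 ± 0.19.

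Lss closes squalene epoxide to lanosterol. It read 9.24, 9.44 and 9.78 (high, low, pool) in control ovaries and 9.50, 9.78 and 9.91 in stressed ovaries. Control and stressed hypothalamus gave 6.80, 7.27 and 7.38 and 6.58, 6.86 and 7.29. Control and stressed pituitary gave 6.14, 6.70 and 7.36 and 6.14, 6.49 and 7.76. Every ovary array was over 1 unit above every other array, and the differences were 2.58 ± 0.20 and 2.84 ± 0.20 (limma adjusted p = 1.61e-09 and 8.71e-10).

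Cyp51 removes a methyl group from lanosterol. Control ovaries read 10.47, 10.58 and 10.01 (high, low, pool) and stressed ovaries 10.80, 10.93 and 10.42. Hypothalamus read 8.27, 8.45 and 7.53 in control and 7.86, 8.29 and 8.19 in stressed samples. Pituitary read 7.05, 6.97 and 6.49 in control and 6.35, 6.86 and 8.25 in stressed samples. The stressed pool was thus the highest pituitary array by more than 1 unit, and it is the array with ovarian markers. Ovary was higher by 2.44 ± 0.22 and 3.54 ± 0.22 (5.41-fold and 11.63-fold, limma adjusted p = 2.01e-08 and 2.41e-10).

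Tm7sf2, a sterol reductase of the following step, read 9.46, 9.22 and 9.10 (high, low, pool) in control ovaries and 9.62, 9.17 and 8.84 in stressed ovaries. Hypothalamus gave 7.39, 7.20 and 7.00 in control and 7.50, 7.08 and 7.11 in stressed samples. Pituitary gave 6.94, 6.87 and 6.60 in control and 6.65, 6.93 and 6.75 in stressed samples. Values within a tissue were close, with SDs of 0.27, 0.19 and 0.14 in ovary, hypothalamus and pituitary, against tissue differences of 2.02 ± 0.13 and 2.45 ± 0.13 (limma adjusted p = 7.63e-11 and 1.51e-11).

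Msmo1, the sterol methyl oxidase that starts removal of the methyl groups at carbon 4, had 9.93, 10.05 and 10.27 (lowest, median, highest) in ovary, 8.31, 8.58 and 8.87 in hypothalamus and 7.01, 7.56 and 8.11 in pituitary. The differences were 1.49 ± 0.16 and 2.53 ± 0.16. Nsdhl, the dehydrogenase that works on the same methyl groups, read 11.00, 10.97 and 11.25 (high, low, pool) in control ovaries and 11.17, 11.25 and 11.32 in stressed ones. Its hypothalamus values were 9.17, 9.32 and 9.53 in control and 9.06, 9.35 and 9.63 in stressed samples. Its pituitary values were 8.62, 8.74 and 8.80 in control and 8.30, 8.42 and 8.98 in stressed samples. The tissues therefore followed each other without overlap, and ovary was higher by 1.81 ± 0.12 and 2.52 ± 0.12 (limma adjusted p = 1.16e-10 and 3.45e-12).

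Ebp, the isomerase that shifts a double bond of the sterol ring, was the synthesis enzyme with a higher level in pituitary than in hypothalamus. It read 8.79, 9.33 and 9.36 (lowest, median, highest) in ovary, 7.59, 7.84 and 7.97 in hypothalamus and 7.97, 8.31 and 8.59 in pituitary, so that ovary was higher by 1.42 ± 0.12 and by 0.95 ± 0.12. Sc5d, lathosterol desaturase, read 10.75, 11.08 and 11.40 in ovary, 9.33, 9.65 and 10.04 in hypothalamus and 8.21, 8.97 and 9.08 in pituitary (differences 1.42 ± 0.15 and 2.21 ± 0.15). Dhcr7 makes cholesterol from 7-dehydrocholesterol and was apart in ovary as well. Control ovaries read 10.26, 10.14 and 9.81 (high, low, pool) and stressed ovaries 10.52, 10.43 and 9.81. Hypothalamus gave 8.22, 8.27 and 7.67 in control and 8.23, 8.02 and 7.74 in stressed samples, and pituitary 7.82, 8.26 and 7.61 in control and 7.61, 7.96 and 8.24 in stressed samples. Dhcr7 differed by nearly the same amount from both tissues, 2.14 ± 0.15 and 2.25 ± 0.15 (limma adjusted p = 6.3e-10 and 7.02e-10).

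**Figure D2:**
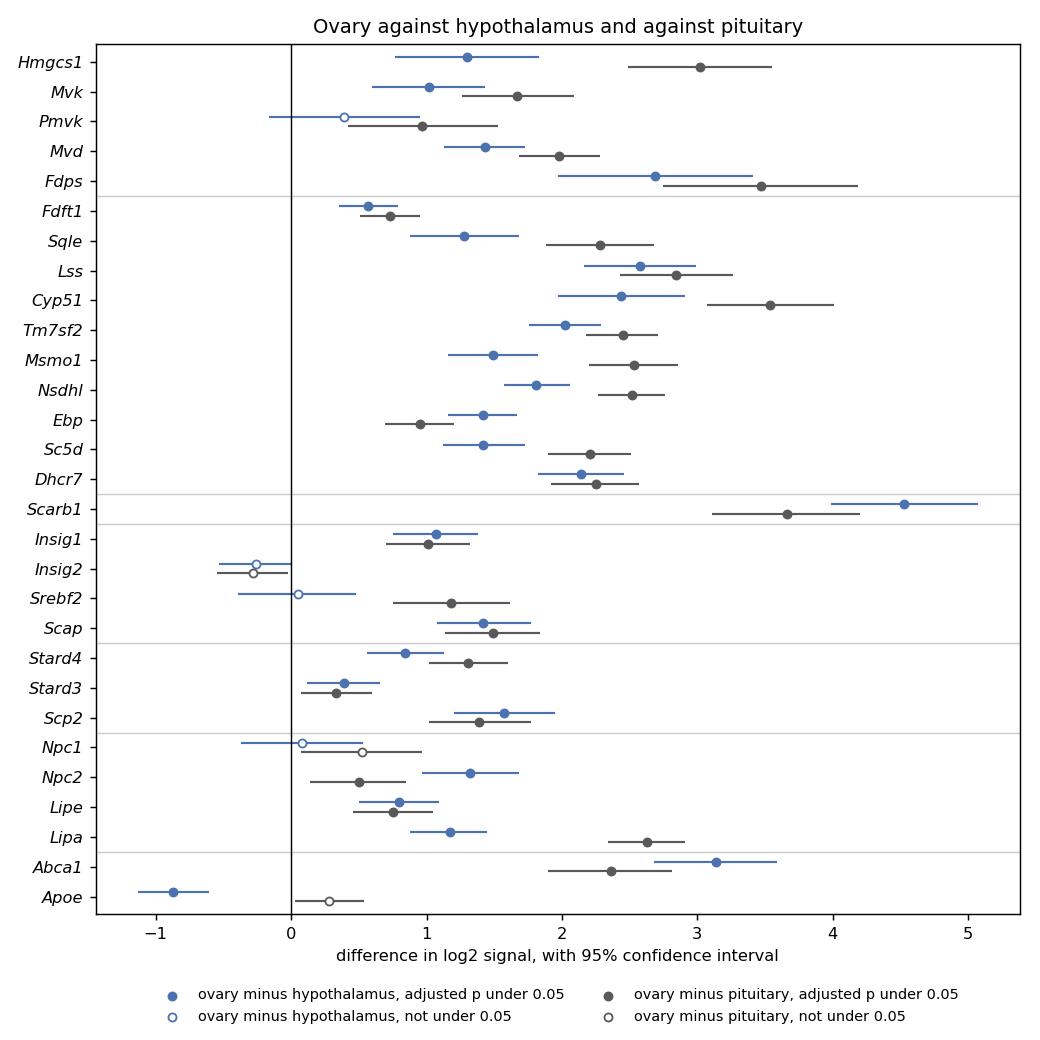
Difference in log2 signal between ovary and hypothalamus (blue) and between ovary and pituitary (dark grey) for the 29 genes, with 95% confidence intervals, filled where the limma adjusted p over all genes was under 0.05. Scarb1 lies farthest right against both tissues (4.53 and 3.66), and Apoe is the gene that was lower in ovary than in hypothalamus (-0.87).

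Scarb1, which encodes SR-BI, had the largest ovary difference of the 29 genes against either tissue. Control ovaries read 11.75, 12.03 and 11.94 (high, low, pool) and stressed ovaries 11.93, 11.90 and 11.78. In hypothalamus the control values were 7.19, 7.29 and 6.97 and the stress values 7.24, 6.90 and 8.57. In pituitary the control values were 7.87, 8.44 and 7.92 and the stress values 7.43, 8.04 and 9.70. The ovary arrays were tight (SD 0.11), and the highest array of each other tissue was the stressed pool. The differences were 4.53 ± 0.26 against hypothalamus and 3.66 ± 0.26 against pituitary, which are 23.08-fold and 12.61-fold in signal (limma adjusted p = 2.29e-11 and 1.02e-09).

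The proteins that control synthesis divided. Scap was higher in ovary by 1.42 ± 0.17 and 1.49 ± 0.17, with 9.90, 10.00 and 10.23 (lowest, median, highest) in ovary, 8.17, 8.72 and 8.82 in hypothalamus and 7.91, 8.41 and 9.12 in pituitary. A second, dimmer Scap cluster read 4.84 to 5.51 on all arrays and was not used. Insig1, itself a target of SREBP, read 10.58, 10.10 and 10.72 (high, low, pool) in control ovaries and 10.98, 10.74 and 10.64 in stressed ovaries. Hypothalamus gave 9.67, 9.74 and 9.43 in control and 9.14, 9.88 and 9.51 in stressed samples, and pituitary 9.77, 9.98 and 9.29 in control and 9.45, 9.75 and 9.47 in stressed samples. The control low mouse had the lowest ovary value, 10.10, which was still above the highest of the 12 others, 9.98. Insig1 was higher in ovary by 1.07 ± 0.15 and 1.01 ± 0.15 (limma adjusted p = 5.54e-06 and 1.57e-05).

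Insig2 did not pass the test in either comparison. It read 6.96, 7.05 and 7.51 (lowest, median, highest) in ovary, 6.96, 7.48 and 7.58 in hypothalamus and 7.21, 7.38 and 7.73 in pituitary, and its differences were -0.26 (95% interval -0.53 to 0.01) and -0.28 (-0.55 to -0.02). Without the stressed high mouse's hypothalamus, the lowest array of that tissue, the first was -0.34 and passed (limma adjusted p = 0.0359). Srebf2, the gene of SREBP-2, read 9.41, 9.71 and 10.03 (high, low, pool) in control ovaries and 9.44, 9.73 and 9.94 in stressed ones. Hypothalamus read 9.77, 9.48 and 10.04 in control and 9.67, 9.14 and 9.85 in stressed samples. Pituitary read 7.98, 8.38 and 9.32 in control and 7.72, 8.48 and 9.27 in stressed samples. The ovary and hypothalamus ranges of Srebf2 overlapped, and their difference of 0.05 did not pass (95% interval -0.39 to 0.48). It was higher in ovary than in pituitary by 1.18 ± 0.21 (limma adjusted p = 0.000111). SREBP-2 is controlled by cleavage, which the arrays do not measure.

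Among transfer proteins, Scp2, the sterol carrier protein of peroxisome and cytosol, was higher by 1.57 ± 0.18 and 1.39 ± 0.18. It read 8.95, 9.68 and 10.02 (lowest, median, highest) in ovary, 7.43, 8.10 and 8.35 in hypothalamus and 7.48, 8.21 and 8.66 in pituitary. Stard4, a soluble carrier between membranes, read 7.08, 7.26 and 7.64 in ovary, 6.14, 6.42 and 6.77 in hypothalamus and 5.72, 5.95 and 6.33 in pituitary (differences 0.84 ± 0.14 and 1.31 ± 0.14). Stard3, the carrier of late endosomes, overlapped between tissues, with 6.59, 6.83 and 7.01 in ovary, 6.05, 6.50 and 6.66 in hypothalamus and 6.19, 6.44 and 6.90 in pituitary. Its differences, 0.39 ± 0.13 and 0.33 ± 0.13, were the smallest that passed (limma adjusted p = 0.016 and 0.0438). The first was lost without the control (0.0529) or the stressed low mouse's hypothalamus (0.0622), and the second without the stressed pool (0.0631) or any of 11 single arrays (0.0514 to 0.147). With the animal as a fixed block the second was lost as well (limma adjusted p = 0.0616).

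In the lysosome, NPC2 hands cholesterol released by the acid lipase to NPC1 for export. Lipa, the acid lipase, was higher in ovary by 1.17 ± 0.14 and 2.63 ± 0.14, reading 9.51, 9.80 and 10.27 (lowest, median, highest) in ovary, 8.44, 8.66 and 9.01 in hypothalamus and 7.02, 7.17 and 7.58 in pituitary. Npc2 read 10.14, 10.75 and 11.06 in ovary, 8.79, 9.39 and 9.99 in hypothalamus and 9.71, 10.18 and 10.69 in pituitary. It was higher by 1.32 ± 0.17 and 0.50 ± 0.17, with no overlap against hypothalamus and overlap against pituitary. The pituitary difference no longer passed without the control low, stressed high or stressed low pituitary or the stressed high ovary (limma adjusted p = 0.0561, 0.0641, 0.063 and 0.0688). Npc1 read 8.13, 8.57 and 8.90 (high, low, pool) in control ovaries and 7.96, 8.45 and 8.87 in stressed ones. Hypothalamus gave 8.18, 8.37 and 8.94 in control and 8.15, 7.79 and 9.00 in stressed samples, and pituitary 7.07, 7.91 and 8.76 in control and 7.74, 7.63 and 8.66 in stressed samples. Every pool exceeded both single mice of its group, and the tissues overlapped. Npc1 did not pass against hypothalamus (0.08, 95% interval -0.37 to 0.53) or pituitary (0.52, 0.07 to 0.97, limma adjusted p = 0.0614). With single mice alone the pituitary difference was 0.69 and passed (adjusted p = 0.0152), as it did without either pituitary pool (0.0135 and 0.0353) or the stressed high ovary (0.0414) and with the animal as a fixed block (0.00912). A second, dimmer Npc1 cluster read 4.73 to 5.33 in ovary and 5.09 to 6.17 in hypothalamus, and the mean of both clusters gave -0.31 against hypothalamus.

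Lipe, the hormone-sensitive lipase that frees cholesterol from stored esters in steroid-making cells, read 6.36, 6.59 and 6.85 (high, low, pool) in control ovaries and 6.31, 6.59 and 6.77 in stressed ones. Hypothalamus gave 5.90, 5.48 and 5.89 in control and 6.04, 5.52 and 5.86 in stressed samples. Pituitary gave 5.57, 5.63 and 6.40 in control and 5.70, 5.75 and 5.88 in stressed samples. The control pituitary pool overlapped the ovary range, and the other 11 arrays did not. Lipe was higher in ovary by 0.80 ± 0.14 and 0.75 ± 0.14 (limma adjusted p = 8.41e-05 and 0.000204).

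Abca1, the exporter that loads cholesterol onto apolipoprotein A-I, read 10.03, 10.24 and 10.32 (high, low, pool) in control ovaries and 10.01, 11.03 and 10.62 in stressed ovaries. Hypothalamus read 6.70, 7.22 and 7.70 in control and 6.73, 6.92 and 8.17 in stressed samples. Pituitary read 7.25, 7.71 and 8.11 in control and 8.25, 7.87 and 8.93 in stressed samples. Abca1 was higher in ovary by 3.14 ± 0.22 and 2.36 ± 0.22 (8.80-fold and 5.12-fold, limma adjusted p = 3.7e-10 and 3.93e-08), second to Scarb1 against hypothalamus. Apoe ran the other way against hypothalamus, with 6.55, 6.84 and 6.92 (lowest, median, highest) in ovary, 7.49, 7.60 and 7.85 in hypothalamus and 6.19, 6.50 and 6.85 in pituitary. Its hypothalamus arrays lay above all others, and ovary minus hypothalamus was -0.87 ± 0.12 (limma adjusted p = 6.3e-06). Against pituitary it was 0.28 and did not pass (adjusted p = 0.0741), while without the stressed pituitary pool it was 0.37 and did (0.021), as it did without all 3 arrays of that pool (0.38, adjusted p = 0.0401).

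Between hypothalamus and pituitary, a contrast added after the ovary results were known, 13 of the 29 genes were lower and 4 higher in pituitary and 12 did not pass, against lower and higher shares of 19.6% and 19.9% of all genes. Hmgcs1 (-1.72), Lipa (-1.46), Apoe (-1.15), Srebf2 (-1.14), Cyp51 (-1.10), Msmo1 (-1.04) and Sqle (-1.0) were lower by at least 2-fold, and 9 of the 15 synthesis enzymes were lower. The 4 that were higher in pituitary were Scarb1 (0.87), Npc2 (0.82), Abca1 (0.78) and Ebp (0.47). Without the stressed pool, whose pituitary array carries ovarian markers, 15 were lower and 4 higher, with Fdps (-1.02) and Pmvk (-0.66) passing as well.

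A second list held 70 further genes of sterol synthesis, uptake, storage, transport and use, of which 59 were measured. In ovary 30 of them were higher and 13 lower than in hypothalamus, and 34 were higher and 10 lower than in pituitary. Their median differences were 0.49 and 0.65, beside 1.32 and 1.67 for the 29. The 8 that led this list were Hsd3b1 (8.14 and 7.42), Cyp11a1 (6.82 and 7.46), Star (6.79 and 6.40) and Cyp17a1 (6.53 and 6.18), Fdx1 (4.68 and 4.28), Hsd17b7 (3.85 and 4.95), Plin4 (3.82 and 3.83) and Nr5a2 (3.69 and 3.67). Without the stressed pool, whose hypothalamus and pituitary carried ovarian markers, Hsd3b1 differed by 8.88 and 8.16, Cyp11a1 by 7.73 and 8.74 and Star by 7.29 and 7.08, and each of the 8 kept its call in both comparisons. STAR moves cholesterol into the mitochondrion, where the side-chain cleavage enzyme CYP11A1, fed with electrons through FDX1, makes pregnenolone. HSD3B1 and CYP17A1 then act on pregnenolone, and NR5A2 is a transcription factor of steroid-making cells. Hsd3b1, Cyp11a1 and Cyp17a1 also belong to the ovarian marker list. Not all genes of sterol handling were higher in ovary: the exporter gene Abcg1 was lower in both comparisons (-1.20 and -1.45), and Cyp46a1, the cholesterol hydroxylase of neurons, was lower than in hypothalamus (-3.39). These 2 were chosen for mention after their values were seen.

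The second comparison, the one for which the series was made, was transport stress against control. In none of the 3 tissues did any of the 29 genes pass the test: 0 of 22180 genes passed in hypothalamus, pituitary or ovary, so the background was 0% (limma, 3 against 3 arrays). At an unadjusted p under 0.05 there were 245, 294 and 592 genes. Stress minus control over the 29 genes ran from -0.24 to 0.42 in hypothalamus, from -0.34 to 0.66 in pituitary and from -0.31 to 0.37 in ovary, with medians of -0.03, 0.00 and 0.00. The ovary test was also run on data simulated with a spread pooled over the 3 tissues. It found 10% of 2-fold and 95% of 4-fold changes, so changes of 2-fold or less were mostly not detectable at that spread. The stress difference of ovary also did not differ from that of hypothalamus or pituitary for any of the 29 genes (0 of 22180 genes, background 0%, limma; 496 and 805 genes at an unadjusted p under 0.05).

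The stress and control arrays did not overlap for 0 genes of the 29 in hypothalamus (4.54% of all genes), 1 in pituitary (6.08%) and 2 in ovary (8.77%). These shares do not exceed the background. In pituitary the gene was Ebp, with 8.59, 8.34 and 8.40 in control and 7.97, 8.06 and 8.28 in stressed samples (high, low, pool). All 3 stressed arrays were lower, with class differences of -0.62, -0.28 and -0.12, and the mean difference was -0.34 ± 0.21 (limma adjusted p = 1). In ovary Scap read 10.05, 10.23 and 10.12 in control and 9.94, 9.90 and 9.90 in stressed samples, lower in every class, with a mean of -0.22 ± 0.16 (limma adjusted p = 0.999). Msmo1 was higher in every class, with 10.02, 9.93 and 10.00 in control and 10.11, 10.27 and 10.08 in stressed ovaries and a mean of 0.17 ± 0.16 (limma adjusted p = 0.999). The 95% interval of each of these differences included 0.

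**Figure D3:**
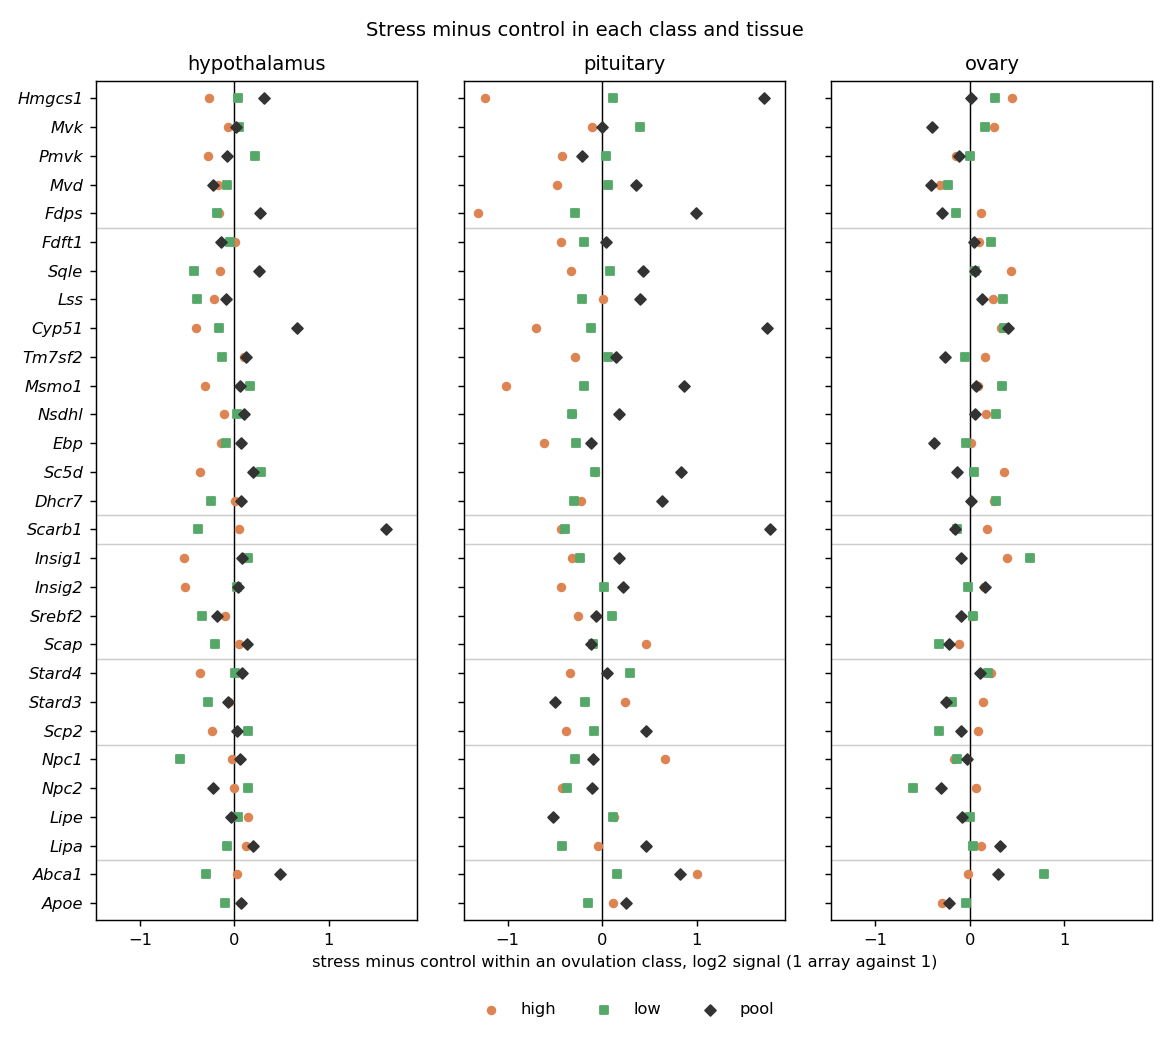
Stress minus control log2 signal within each ovulation class (orange high, green low, black pool), 1 array against 1, for the 29 genes in each tissue. In pituitary the pools lie to the right (Scarb1 1.78, Cyp51 1.75, Hmgcs1 1.71) where the high mice lie to the left (Fdps -1.31, Hmgcs1 -1.24), while in ovary no difference reaches 1.

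Within ovulation classes each difference compares 1 array with 1 and has no replicate check. In pituitary the classes ran in opposite directions. Between the high mice 14 of the 15 synthesis enzymes were lower in the stressed mouse (median -0.43), with Fdps at -1.31, Hmgcs1 at -1.24 and Msmo1 at -1.02, while Abca1 was higher by 1.0. Over all genes the median of that pair was -0.08, 12525 of 22180 were lower, and 1233 genes differed by at least 2-fold. Between the low mice the median of the enzymes was -0.12, with 9 of 15 lower, beside a median of -0.03 and 12017 of 22180 lower over all genes. Between the pools 13 of the 15 were higher in the stressed pool (median 0.40), and Scarb1 (1.78), Cyp51 (1.75) and Hmgcs1 (1.71) differed by at least 2-fold. Over all genes 10462 of 22180 were higher in that pool (median -0.02), and 461 differed by at least 2-fold. The stressed pituitary pool is the array in which the ovarian markers averaged 7.39 against 4.96 in the control pool. Its 7 astrocyte markers averaged 6.86 against 6.18. The 8 hypothalamic neuron markers averaged 6.49 in both pools, but single markers differed in both directions. Npy (8.41 against 5.92) and Trh (6.92 against 5.44) were higher in the stressed pool. Pmch (3.60 against 6.67) and Hcrt (4.77 against 5.47) were lower. What part other tissues had in these differences was not tested.

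In hypothalamus Scarb1 was the 1 gene of the 29 with a class difference of at least 2-fold: 1.60 between the pools, against 0.05 and -0.39 between the single mice. The ovarian markers differed between those pools in the same direction, 6.55 in stress against 4.84 in control, and their part was not tested. Of the 15 synthesis enzymes, 12 were lower in the stressed high mouse (median -0.16), 9 were lower in the stressed low mouse (median -0.08) and 11 were higher in the stressed pool (median 0.07). Over all 22180 genes the median was -0.02 in each class, with 11674 and 11809 lower in the stressed high and low mouse and 10382 higher in the stressed pool. Differences of at least 2-fold numbered 423, 232 and 119 of all genes in the high, low and pool pairs.

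In ovary the classes differed less. Between the high mice 13 of 15 synthesis enzymes were higher in the stressed mouse (median 0.17), among them all 10 from squalene onwards, at 0.01 to 0.44. Between the low mice 10 of 15 were higher (median 0.16), and between the pools 8 of 15 (median 0.01). Over all 22180 genes 10208, 11210 and 10710 were higher in the same order, with medians of -0.04, 0.00 and -0.01. Cyp51 was higher under stress in each class, by 0.33, 0.36 and 0.41, but its ranges overlapped and its mean difference of 0.37 ± 0.22 did not pass (limma adjusted p = 0.999). Insig1 was higher in the stressed single mice by 0.39 and 0.64 and lower in the stressed pool, at -0.09. Scarb1 differed by 0.18, -0.13 and -0.16, and Abca1 by -0.02, 0.79 and 0.30.

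**Figure D4:**
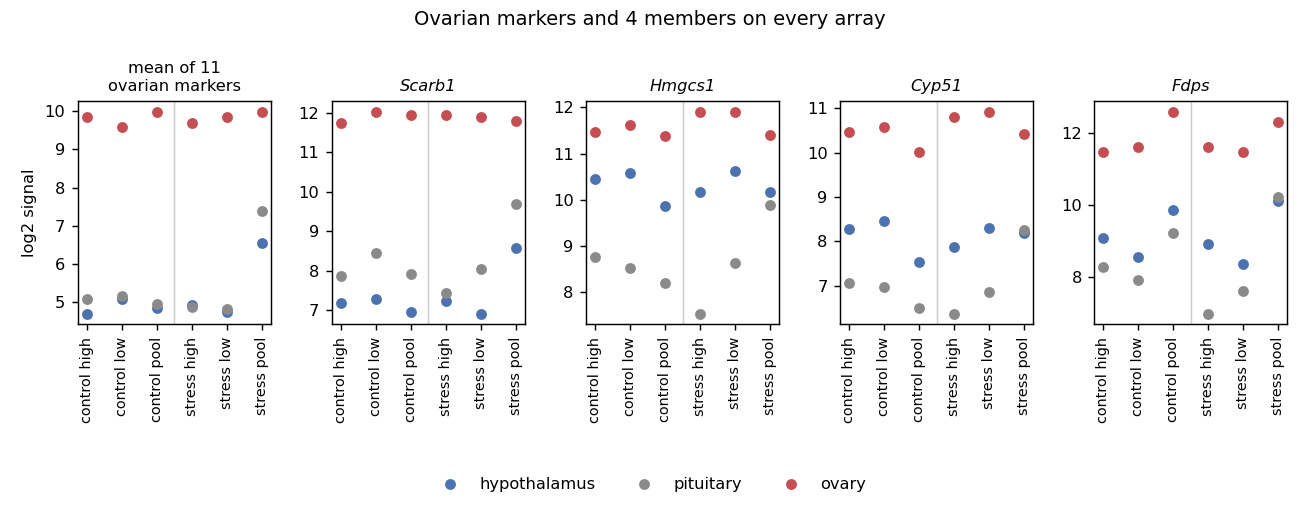
Mean log2 signal of 11 ovarian cell markers (left panel) and log2 signal of Scarb1, Hmgcs1, Cyp51 and Fdps on each of the 18 arrays, by treatment and class, with tissues in colour. The marker mean of the stressed pool is 6.55 in hypothalamus and 7.39 in pituitary, and in pituitary all 4 genes are highest in that same array. These 4 genes were not chosen by a set rule. Of genes not drawn, Lss (7.76) and Sqle (8.56) are also highest in that pituitary array. Ebp (8.28), Scp2 (7.94) and Tm7sf2 (6.75) are not, with 8.59, 8.66 and 6.94 in the control high mouse. The mean of astrocyte markers, not drawn, is also highest in that pituitary array (6.86), though Gja1 and Aldh1l1 of that list are higher in ovary than in hypothalamus.

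The number of ovulated oocytes was set against the ovary arrays of the high and low mice, 2 against 2 with treatment in the model. None of the 29 genes passed (0 of 22180 genes, background 0%, limma, with 2382 genes at an unadjusted p under 0.05). Of the 29 only Lipa (0.0143), Npc1 (0.0216) and Abca1 (0.0278) had an unadjusted p under 0.05 (limma). That share is near the share over all genes, so it is not read as a result about these genes. Lipa read 9.66 and 9.78 in the high mice (control, stress) and 10.24 and 10.27 in the low mice, a difference of -0.53 ± 0.16 (limma adjusted p = 0.408). Npc1 was lower in the high mouse of both treatments, with differences of -0.44 and -0.48 (mean -0.46 ± 0.15, limma adjusted p = 0.419). Its dimmer cluster read 4.73 (high) and 5.02 (low) among controls, but 5.33 and 5.27 among stressed mice. Npc2, also of the lysosome, ran the other way in the mean (0.31), with -0.02 among controls and 0.65 among stressed mice. Abca1 gave -0.21 among controls and -1.02 among stressed mice (mean -0.62 ± 0.22, limma adjusted p = 0.432). The mean of 9 macrophage markers was 7.48 and 7.37 in the high mice and 7.66 and 7.65 in the low mice. Within that list C1qb (9.57 and 9.54 against 9.40 and 9.45) and C1qc (8.21 and 7.61 against 7.93 and 7.56) ran the other way, as did C1qa among controls. The mean of 6 endothelial markers was 7.80 and 7.92 in the high mice and 8.15 and 8.13 in the low mice. Within that list Pecam1 ran the other way among stressed mice (9.03 in the high and 8.91 in the low mouse). The part of these cell types was not tested. The 15 synthesis enzymes had a median difference of 0.02, from -0.24 for Lss to 0.34 for Tm7sf2. In data simulated with a spread pooled over the tissues the test found 2% of 2-fold and 66% of 4-fold changes.

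The pools of 8 mice stood apart from the single mice within each tissue, and this comparison was added after that was seen. A limma fit over the 18 arrays had tissue and treatment in the model. In it 11 of the 29 genes were higher in pools and 5 lower, against 20.9% and 14.5% of all genes. With only the 13536 genes of a mean of at least 5 tested, which include all 29, 4664 were higher and 2068 lower. The shares of the 29 are near these, so the counts are not read as a result about these genes. The 6 pool arrays are 3 tissues of 2 pools and the 12 others 3 tissues of 4 mice. Since the block correlation was -0.02, the fit treated the arrays as nearly independent, so its p values are not those of 2 pools against 4 mice. Fdps was higher by 1.39 ± 0.20 (limma adjusted p = 3.56e-05), with pool minus single-mouse differences of 1.02 and 1.46 in control and stressed hypothalamus, 1.13 and 2.92 in pituitary and 1.05 and 0.77 in ovary. Pmvk, an enzyme of the same pathway, was lower, at -1.26 ± 0.11 (adjusted p = 1.96e-07), with -1.55 and -1.60, -1.11 and -1.12, and -1.08 and -1.12 in the same order. Both genes kept their direction in all 6 groups.

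Npc1 was higher in pools by 0.86 ± 0.13, Mvk by 0.81 ± 0.12, Lss by 0.67 ± 0.14 and Srebf2 by 0.67 ± 0.14, each in 6 of 6 groups (limma adjusted p = 7.55e-05, 2.86e-05, 0.00134 and 0.00145). Abca1 (0.65), Sqle (0.63), Npc2 (0.57), Lipe (0.32), Insig2 (0.31) and Nsdhl (0.30) completed the 11, also with all 6 groups in that direction. The 6 groups are tissues of 2 pools, and no share over all genes is given for such agreement. It is therefore no separate support for the calls. Scp2 was lower, at -0.72 ± 0.11, in 6 of 6 groups (adjusted p = 4.02e-05). Sc5d (-0.34), Dhcr7 (-0.33) and Stard4 (-0.31) were lower too, in 5, 5 and 6 of the 6 groups. The exception for Sc5d and Dhcr7 was the stressed pituitary pool. Without the stressed pool 10 of the 29 passed in all, 6 of them higher, and without the control pool 10 passed, 2 of them lower. Leaving out the control low mouse left 3 lower. Mvk, Pmvk, Fdps, Lss, Srebf2, Npc1 and Scp2 passed under every alternative run for this comparison. How many animals a sample held, how its RNA was handled and the ovulation class cannot be told apart here, since each pool also held the mice of middling oocyte number. Several pool arrays also carried markers of another tissue, namely the stressed pool's pituitary and hypothalamus and both ovary pools. The part of those tissues in the pool differences was not tested.

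**Figure D5:**
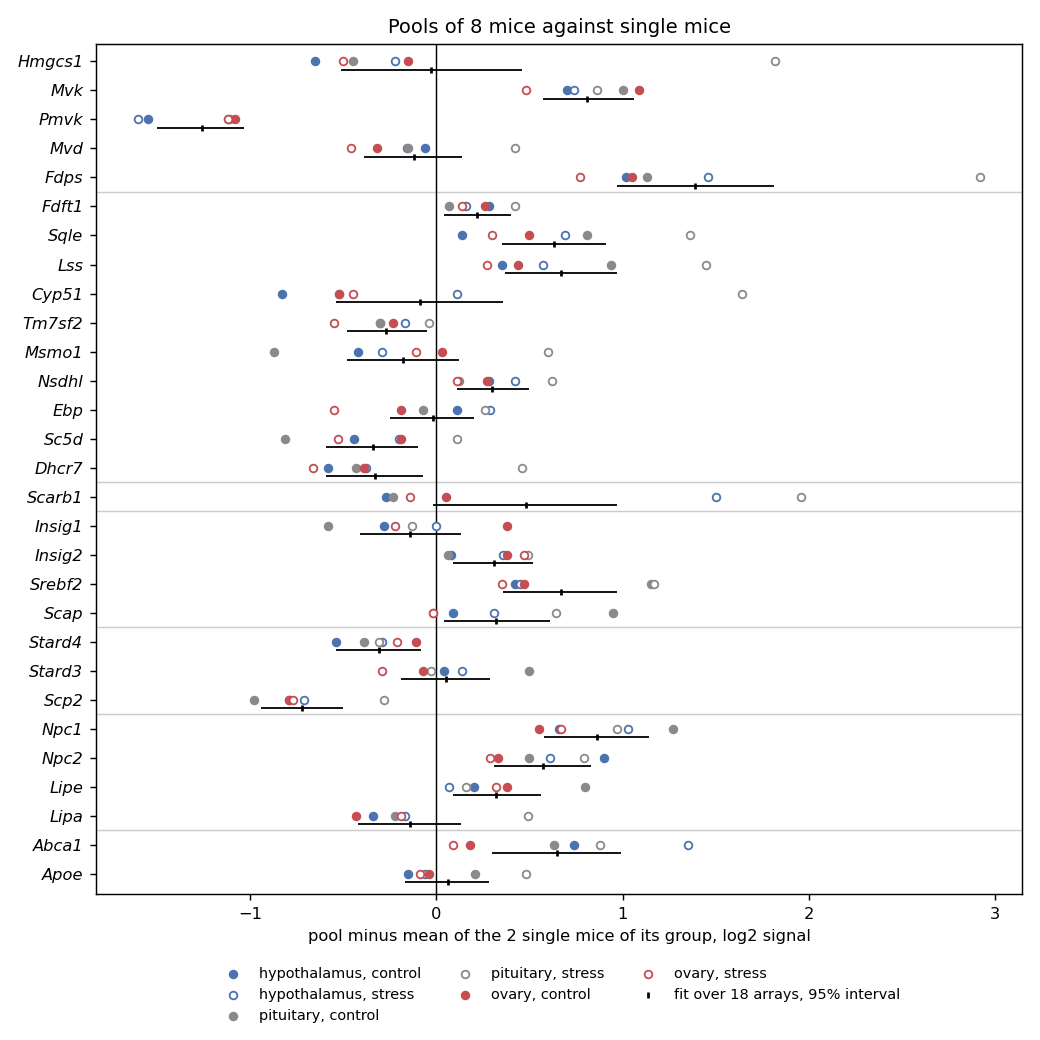
Pool minus the mean of both single mice of the same tissue and treatment, in log2 signal, for the 29 genes (coloured points, filled control, open stress), with the limma estimate over the 18 arrays and its 95% interval (black). Fdps, Npc1 and Mvk lie right of 0 and Pmvk and Scp2 left of 0 in all 6 groups. The stressed pituitary pool is the farthest right for Scarb1, Hmgcs1, Cyp51 and Fdps, among others. It is not for Npc1 (farthest right in control pituitary, 1.27) or Mvk (control ovary, 1.09).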

How the data were processed

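RNA of 3 tissues was hybridised to 18 Affymetrix arrays; per the labels, total RNA was extracted with Trizol and 6 µg were labelled. The authors deposited 1 log2 signal per transcript cluster and array, made with Transcriptome Analysis Console per the submitters' processing notes. Its version, the background correction and the normalization are not given in the sources used here, and base 2 was inferred from the range of values (highest 13.66). Clusters naming exactly 1 gene (23521 of 41345) were kept, with the brightest cluster per gene over the 18 arrays and no filter on low values, which gave 22180 genes. No deposited detection call was used, so no statement is made on background. The members and lists were chosen with earlier results of these data known.

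Tests were run with limma 3.58.1 (R 4.3.3; lmFit and eBayes, two-sided, Benjamini-Hochberg over all genes, threshold 0.05, a second rule adding a log2 difference of at least 1). Tissues were compared over all 18 arrays with the animal or pool as a random block (duplicateCorrelation, 0.27), stress on the 6 arrays of a tissue, high against low ovulation on 6 ovary arrays with treatment, and pools against single mice over 18 arrays (block correlation -0.02). Errors are limma standard errors and intervals are 95%. Arrays of the same class deviated together (9 same-class correlations of 0.359 to 0.727, the 18 others -0.521 to 0.321), although a class is a shared name and not a shared animal, so a fit with the class as a replicate block was an alternative. Alternatives were quantile normalization, array medians subtracted, the mean of a gene's clusters, a mean of at least 5, eBayes with trend, single mice only, other blocks, array weights and leaving out each array. The steps were tested on simulated data. The number of arrays limits the precision.

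Every member was given its level and both ovary differences. Values on all arrays were printed for up to 8 members with ovary wholly apart, by the smaller ovary difference, for Scarb1, Npc1, Lipe, Insig1, Srebf2 and Abca1, and for members with no overlap between stress and control. Other pathway genes were named if at least 2-fold and called in both ovary comparisons, up to 8 by the smaller difference. Promoter windows are RefSeq's on GRCm38.p6. Figures were drawn with matplotlib 3.10.9 (Python 3.11.15).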

Additional observations from a re-analysis of the deposited data

Results flagged for a closer look

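For each of the 29 genes the 6 arrays of a tissue were searched for 1 array far from the other 5 (Dixon's test at the 95% level). Of 87 such sets 7 held one, and chance alone gives about 1 in 20 for like samples, which pools and single mice are not. No share over all genes is given beside this count. The far value was the stressed pool for Cyp51 in pituitary (8.25), Scarb1 in hypothalamus (8.57) and Ebp in ovary (8.79). It was the control pool in pituitary for Sc5d (8.21) and Lipe (6.40). It was a single stressed mouse for Insig2 in hypothalamus (6.96, high) and Npc2 in ovary (10.14, low).

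For Lss the stress difference was below 0 in every class in hypothalamus (mean -0.24) and above 0 in every class in ovary (mean 0.24). The difference between these tissues, 0.48 (95% interval -0.35 to 1.31), did not pass (limma adjusted p = 1). It was the 1 gene of the 29 with such opposite signs. No share over all genes is given for this pattern, so the count is not read as a result about these genes.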

How the results depend on the processing

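The 29 genes were retested under the alternatives described with the methods, and of the single-gene differences so obtained 2604 kept their direction and their side of the threshold, 52 lost the call, 15 gained it and 4 changed sign. Of the counts, 403 stayed within 1.5 times the value reported and 9 did not. The genes lower in ovary than in hypothalamus numbered 1 to 2 when single arrays were left out, the second being Insig2. Those lower than in pituitary, 0 as reported, numbered 1 (Insig2) after quantile normalization and 1 with genes of a mean of at least 5, where fewer genes were tested. The sign changes belonged to Srebf2 against hypothalamus (-0.06 to 0.14 over the left-out arrays, with -0.01 and -0.06 without the control and the stressed low hypothalamus) and to Npc1 (-0.03 to 0.19, and -0.31 with the mean of its clusters, whose dimmer cluster was higher in hypothalamus). None of these passed.

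Genes that passed between pools and single mice numbered 10 to 15 when 1 animal or pool was left out (6 to 11 higher, 2 to 5 lower), and 2 were lower with array medians subtracted. The cause was not tested. With the ovulation class as a replicate block, 0 of the 29 passed for stress in each tissue, and with the animal as a fixed replicate block 25 and 26 were higher in ovary: Pmvk against hypothalamus (0.0121) and Npc1 against pituitary (0.00912) gained the call and Stard3 against pituitary lost it (0.0616). Without a replicate block 24 and 23 were, and Pmvk, Stard3 and Npc2 lost the call against pituitary. For stress and for high against low, 0 genes of the 29 passed under any alternative run. These tests can miss 2-fold changes, and a pool and a single mouse are not like replicates.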
